A study of Mus musculus with 2 samples.

Results

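The genes described here are 8 genes of cell cycle arrest and senescence: the cyclin-dependent kinase (CDK) inhibitors Cdkn1a (p21), Cdkn1b (p27), Cdkn1c (p57), Cdkn2a (p16Ink4a and p19Arf) and Cdkn2b (p15), the stress-responsive transcription factor gene Trp53 (p53), its antagonist Mdm2, and the secreted stress factor gene Gdf15. They were taken by gene symbol from the 32285 genes of the count tables, and all 8 had at least 1 count in each library. The samples were whole dorsal skin of male C3H/HeN mice, shaved, aged 7 weeks when dosing began and 9 weeks when skin was taken. The control group (Con) received vehicle and the androgenetic alopecia model (TP) received 0.5 mg testosterone propionate per day under the skin. The study injected the androgen and made no genetic change, and both groups share the shaving, the strain and the sex. Skin of 15 mice per group was pooled before digestion and gave 1 library per group, so the spread between animals cannot be read and no test between groups was made. The question the comparison addresses is how expression in each skin cell type differs between androgen-treated and control skin.

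CDK inhibitors bind complexes of cyclins and CDKs and hold cells before DNA synthesis. The CIP/KIP proteins p21, p27 and p57 bind several such complexes, while the INK4 proteins p15 and p16 bind the CDK4 and CDK6 kinases that phosphorylate the retinoblastoma protein. p53 activates Cdkn1a and Mdm2 after DNA damage, and the MDM2 protein in turn marks p53 for degradation. In skin, p21 is also known as a gene that keratinocytes use as they leave the cell cycle and differentiate, and Cdkn1a and Cdkn2a are widely used as senescence markers.

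On the mouse assembly GRCm38 (mm10), Cdkn1a (ENSMUSG00000023067) lies at chr17:29090979-29100722 and Cdkn1b (ENSMUSG00000003031) at chr6:134920401-134925525. Cdkn1c (ENSMUSG00000037664) lies at chr7:143458339-143461059. Cdkn2a (ENSMUSG00000044303) at chr4:89274473-89294619 and Cdkn2b (ENSMUSG00000073802) at chr4:89306289-89311032 are neighbours with 11669 bases between them. Trp53 (ENSMUSG00000059552) lies at chr11:69580348-69591873, Mdm2 (ENSMUSG00000020184) at chr10:117688875-117710758 and Gdf15 (ENSMUSG00000038508) at chr8:70629393-70632470. Positions are those of RefSeq on GRCm38.p6, in which all 8 symbols matched.

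Sequence before the start of Cdkn1a is shown because Cdkn1a carried the largest number of counts and because p53 acts on it directly. RefSeq windows from 250 bases before to 50 after the start were given for 7 of the 8 genes, and Cdkn1a has 2 such windows with starts 2790 bases apart. The window of the upstream start holds a match to the p53 response element, a pair of adjacent 10-base half-sites searched with both core motifs exact and at most 1 other mismatch. It ends 31 bases before the start, and capitals mark its 20 bases within chr17:29090903-29090972, plus strand.
Cdkn1a, upstream start: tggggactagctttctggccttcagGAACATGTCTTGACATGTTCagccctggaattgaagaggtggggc
The other start has no such match. Capitals in the 100 bases that lead up to it, chr17:29093669-29093768, plus strand, mark 1 of the 2 GC boxes (GGGCGG, both strands) of its window.
Cdkn1a, downstream start: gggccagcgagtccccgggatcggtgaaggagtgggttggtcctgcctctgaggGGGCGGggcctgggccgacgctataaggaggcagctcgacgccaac
Of all 32851 RefSeq windows of the same length, 18 (0.0548%) held such a p53 element and 35.7% held at least 1 GC box. Among the windows of the other genes none held the element in these 300 bases, and GC boxes were found for Cdkn1b, Cdkn2a, Cdkn2b and Mdm2. A match describes letters and not binding, and the assay reads transcript ends and cannot tell from which start a Cdkn1a transcript came.

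The deposited values are counts of unique molecular identifiers (UMIs) per gene and cell barcode, where each identifier stands for 1 captured transcript. After the study's filters, 39076 control cells held 106406464 UMIs with a median of 2047 per cell, and 18542 TP cells held 133161208 UMIs with a median of 4825.5. The libraries had 186 kept barcodes in common. The mitochondrial limit removed 3465 control and 5871 TP barcodes. The cells fell into 31 clusters. By fixed markers 25 of them were assigned to 15 classes, and the remaining 6 are given by their leading genes. Those 6 held 30.9% of the control and 12.7% of the TP cells. Cells like those of the interfollicular epidermis (IFE), the skin surface between hairs, made up more of the TP library, with suprabasal-like cells at 8.18% of control and 19.6% of TP and granular-like cells at 1.57% and 6.83%. Inner root sheath-like cells made up 19.3% and 5.60% and hair matrix-like cells 13.1% and 4.42%. Levels below are UMIs per 1000000 UMIs (CPM) of the same cells. Ranges in parentheses are 95% intervals, exact Poisson for levels and exact conditional binomial for ratios, and they cover counting error only.

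Over all kept cells, Cdkn1a stood at 253 CPM in control and 457 CPM in TP, a ratio of 1.80 (1.78 to 1.83). Cdkn2b stood at 18.7 and 26.2 CPM (ratio 1.41, 1.33 to 1.49), Cdkn1c at 13.3 and 16.9 CPM (ratio 1.27, 1.19 to 1.36) and Gdf15 at 0.583 and 1.49 CPM (ratio 2.55, 1.91 to 3.45, from 62 and 198 UMIs). These 4 were higher in TP beyond counting error. Trp53 at 109 and 95.2 CPM (ratio 0.877) and Cdkn1b at 72.3 and 65.0 CPM (ratio 0.899) were lower, but both ratios turn above 1, to 1.04 and 1.07, when the libraries are scaled by the trimmed mean of M values (TMM). Mdm2 stood at 58.9 CPM in both (ratio 1.00, 0.967 to 1.03), and TMM scaling gives it a ratio of 1.19. Cdkn2a had 28 and 38 UMIs, too few to tell the libraries apart.

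None of the 8 was at least 2-fold apart on the log2 scale of counts per 10000 plus 0.1, where 1.71% of 17574 genes were 2-fold higher and 0.808% lower in TP. The pseudocount of 0.1 equals 10 CPM and holds low genes near 1. By the ratio of CPM alone, 8.31% of genes were at least 2-fold higher and 10.6% lower, and Gdf15 was among the higher. Counting intervals lay above 1 for 27.8% of those genes and below 1 for 55.7%, so that a ratio beyond counting error is common between these deep libraries. Of the genes 2-fold apart, 67.9% were higher in TP, against 44.1% by the ratio of CPM alone and 86.7% under TMM scaling, which adds 0.25 to every log2 ratio without a pseudocount.

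Since the libraries differ in cell makeup, levels were also computed with the same cluster shares in both. These are shares of UMIs and not of cells. In TP, granular-like cells made up 6.83% of cells but held 26118847 of 133161208 UMIs. With the control's shares, Cdkn1a stood at 349 CPM in TP, a ratio of 1.38, and with the shares of TP the control stood at 334 CPM, a ratio of 1.37. Cdkn2b had ratios of 1.07 and 1.23 by the same means and Cdkn1c 1.70 and 1.37. Equal cluster shares thus brought Cdkn1a and Cdkn2b closer to 1 and Cdkn1c further from it. With control shares Cdkn1b and Trp53 had ratios of 1.06 and 1.03, on the other side of 1 from those with TP shares (0.932 and 0.956). Mdm2 stayed at 0.994 and 0.995.

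Within the 21 classes and unnamed clusters, 103 combinations of a gene and a class had at least 50 UMIs. The interval lay above 1 in 29 of them and below 1 in 18, beside 14.6% and 27.7% of 187471 such combinations over all genes, and 14 of the 29 were Cdkn1a. Gdf15 in myeloid-like cells was 2-fold higher and none was 2-fold lower, beside 1.44% and 1.97%. Gdf15 had 0 UMIs there in control and 62 in TP. It met the limit of 50 UMIs through TP alone, so that call draws no support from these shares. A gene with more UMIs gives narrower intervals, and the shares over all genes are not matched to the level of Cdkn1a, which had 26965 and 60892 UMIs. A class with more UMIs also gives narrower intervals, so each class has a background of its own. The share of genes above 1 was 12.9% in basal-like, 15.4% in suprabasal-like, 15.7% in granular-like, 17.4% in inner root sheath-like, 18.9% in hair matrix-like and 21.9% in DPC-like cells. The share below 1 was 36%, 47.4%, 48.5%, 37.4%, 30.6% and 34.9% in the same order. Ratios below 1 were thus the more frequent in each of these 6 classes.

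**Figure D1:**
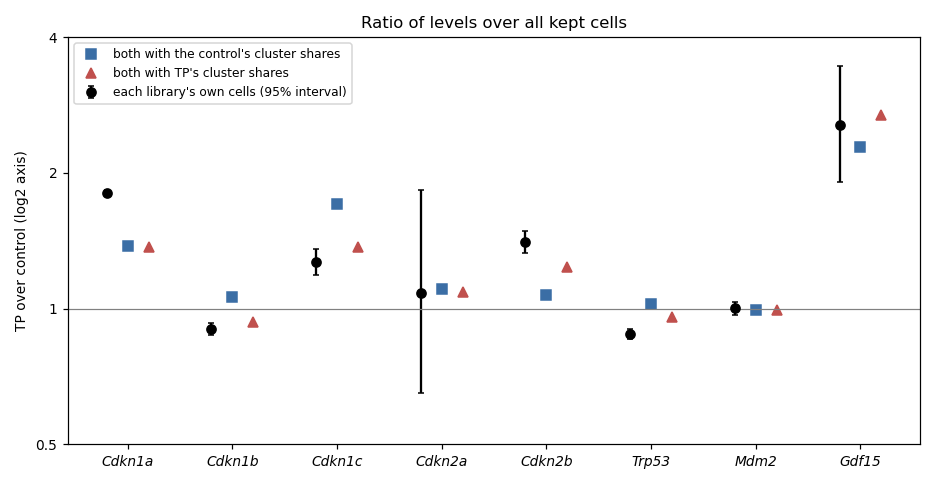
Ratio of the level in TP to that in control over all kept cells for each gene, on a log2 axis, with each library's own cells (circles, 95% counting interval), with the control's cluster shares of UMIs in both (squares) and with those of TP in both (triangles). Cdkn1a moves from 1.80 to 1.38 and 1.37, Mdm2 stays at 1, and Cdkn1b and Trp53, which also turn above 1 under TMM scaling, change side.

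Among the 21 classes and unnamed clusters, Cdkn1a, the inhibitor best known as a p53 target, was highest in hair cortex-like and granular-like cells. Hair cortex-like cells, which build the hair shaft, had 756 CPM (714 to 799) in control and 1150.3 CPM in TP. Granular-like cells, the last living layer of the epidermis, had 679 and 918 CPM, suprabasal-like cells 428 and 623 CPM, and basal-like cells 207 and 303 CPM. The order basal, suprabasal, granular held in both libraries, with intervals that do not overlap. Outer bulge-like cells, which carry stem cell markers, had 101 and 87.8 CPM. Dermal papilla cell (DPC)-like cells, the mesenchymal cells at the base of the follicle, had the lowest control level of the 21 classes and unnamed clusters, at 68.9 CPM, overlapping with dermal sheath cup-like cells at 78.1 CPM. In both libraries the hair cortex level overlapped with no other, while 14 of 20 neighbours in the control order and 15 of 20 in the TP order had overlapping intervals.

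The ratio of TP to control lay above 1 beyond counting error in 14 of the 21 classes and unnamed clusters, and below 1 in melanocyte-like cells only, at 124 and 91.4 CPM (ratio 0.734, 0.570 to 0.941). Inner root sheath-like cells had 269.8 and 457 CPM (ratio 1.69), with lower ratios of 1.40, 1.53 and 1.52 in their 3 clusters, of which the Krt71 cluster held 49.6% of the class in control and the Krt73 cluster 54.5% in TP. Hair cortex-like cells had a ratio of 1.52, suprabasal-like cells 1.46 and granular-like cells 1.35. Outer bulge-like cells had a ratio of 0.866 (0.725 to 1.04). After every cell of at least 1000 UMIs was thinned to 1000, 46.4% of control and 57.2% of TP granular-like cells had a Cdkn1a UMI, against 97.7% and 98.9% before thinning. Thinned shares leave out the 5362 control and 872 TP cells with fewer UMIs, while shares before thinning use all kept cells of a class. Granular-like cells held 16.7% of all Cdkn1a UMIs in control and 39.4% in TP. Of the UMIs of all genes they held 6623743 of 106406464 in control and 26118847 of 133161208 in TP, so their part of the library grew too.

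Within classes the clusters differed. Among basal-like cells, the cluster led by Cdh13 and Sox6 had 199 CPM of Cdkn1a in both libraries (ratio 1.00, 0.899 to 1.11), whereas the cluster led by Krt14 and Krt5 had 222 and 392 CPM (ratio 1.77, 1.61 to 1.94). Among hair matrix-like cells, which feed the growing hair, the cluster led by Selenbp1 and Krt35 had 264 and 387 CPM (ratio 1.47). The cluster led by Shh, a signal of the growing follicle, had 91.9 and 57.1 CPM (ratio 0.621, 0.511 to 0.752). The third cluster, led by Slc27a6, had the highest level of the class at 395 and 577 CPM (ratio 1.46). The Selenbp1 cluster was the largest in control with 56.3% of the class, and the Shh cluster was the largest in TP with 42.1%. The pooled ratio of 1.09 was 0.948 with coarser and 1.5 with finer clusters.

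The same held for DPC-like cells, whose pooled levels of 68.9 and 110.1 CPM (ratio 1.60, 1.45 to 1.76) rested on 1 cluster. The cluster led by Gpc5 and Igfbp3 held 34 control and 310 TP cells, at 451 and 525 CPM. Without it the class had 66.7 and 63.5 CPM (ratio 0.951, 0.850 to 1.06). The cluster led by a (agouti) and Vcan had 53.3 and 62.8 CPM (ratio 1.18) and the one led by Ndnf and Wif1 had 82.0 and 67.0 CPM (ratio 0.817, 0.642 to 1.03). Agouti and Vcan are known DPC genes. The Ndnf cluster held 56.6% of the control DPC-like cells and the agouti cluster 62.4% of those of TP.

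Transcripts of other kinds also differed between the libraries within clusters. The summed level of 19 immediate-early genes, which cells switch on within minutes of stimulation and also during tissue digestion, was higher in TP in 31 of 31 clusters. DPC-like cells had 2508 and 14420 CPM of it, granular-like cells 6601 and 8993 CPM. Across the 31 clusters, which share 2 libraries, the ratio of Cdkn1a and that of the immediate-early sum had a Spearman correlation of 0.15. The summed level of 6 markers of granular cells, the Lor gene among them, was higher in TP in 30 of 31 clusters, as in DPC-like cells at 21.7 and 64.3 CPM and inner root sheath-like cells at 32.1 and 97.9 CPM, against 599.5 and 2199 CPM in granular-like cells. The ratio of this sum and that of Cdkn1a had a Spearman correlation of 0.41 across the same clusters. Transcripts free in the suspension give such counts in cells that do not make them, and the part of free transcripts and of immediate-early induction in the Cdkn1a ratios was not tested.

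Cdkn1b, which encodes p27 and is regulated largely after transcription, varied less between cell types. Outer bulge-like cells led the control order at 106 CPM (90.2 to 124), with 92.8 CPM in TP, and 9 other classes or unnamed clusters overlapped with them. Of 20 neighbours in its order, 19 overlapped in control and 20 in TP. For each of the 6 genes that follow, 18 to 20 neighbours overlapped in either library. The unnamed cluster led by the mitotic genes Knl1 and Aspm had 101 and 133 CPM (ratio 1.31, 1.11 to 1.54), the highest level in TP. Hair cortex-like cells were lowest in both libraries at 36.4 and 37.5 CPM. Hair matrix-like cells had 68.3 and 85.4 CPM (ratio 1.25, 1.11 to 1.40), and a ratio of 1.03 with finer clusters. Basal-like cells had 78.8 and 66.5 CPM (ratio 0.844), and suprabasal-like and granular-like cells had ratios of 0.871 and 0.787 that turned to 1.04 and 1.02 under TMM scaling. DPC-like cells had 60.8 and 61.8 CPM (ratio 1.02, 0.908 to 1.14).

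**Figure D2:**
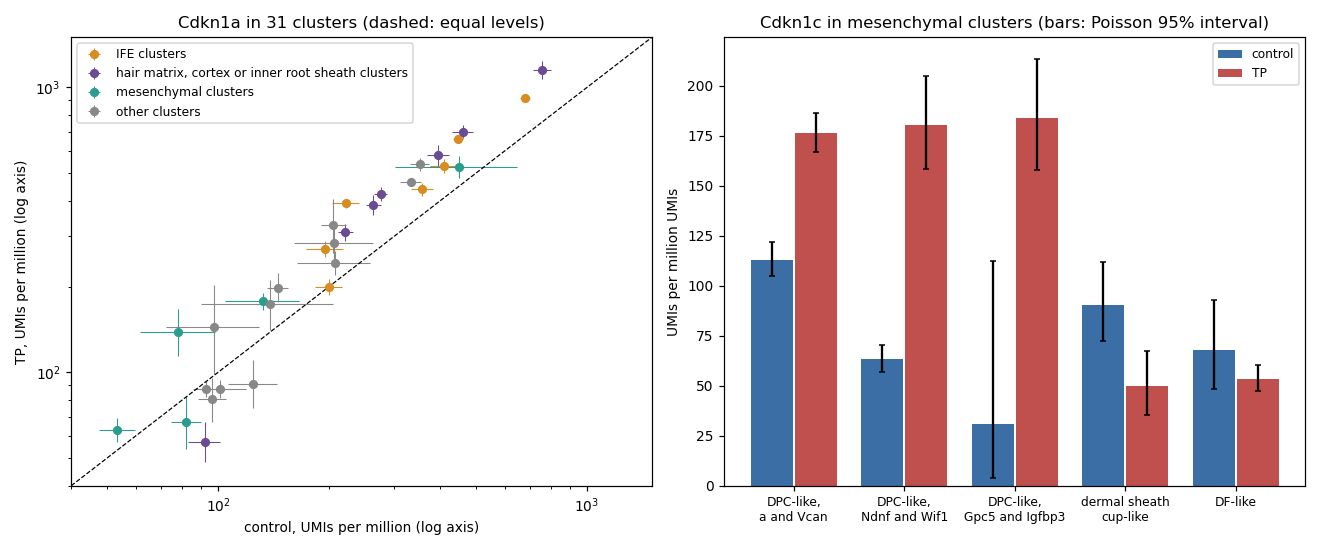
Left, Cdkn1a level in control and TP for each of the 31 clusters on log axes with 95% counting intervals, where 20 clusters have a ratio beyond counting error above the dashed line of equal levels and 2 below it, and the Shh cluster (91.9 and 57.1 CPM) lies under it. Right, Cdkn1c level in the mesenchymal clusters, where the 3 DPC-like clusters reach 176 to 184 CPM in TP and dermal sheath cup-like cells are lower in TP.

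Cdkn1c, which encodes p57, was the mesenchymal member of the set. DPC-like cells held 71.8% of its UMIs in control and 73.8% in TP, and they stood at 89.4 CPM (84.0 to 95.1) in the control library against 178 CPM (169 to 186) under TP, with a ratio of 1.99 (1.84 to 2.15). Each DPC-like cluster was higher in TP: 113 and 176 CPM in the agouti cluster (ratio 1.56, 1.42 to 1.71), 63.3 and 180.4 CPM in the Ndnf cluster (ratio 2.85, 2.40 to 3.37) and 31.1 and 184 CPM in the Gpc5 cluster, where the control level rests on 2 UMIs (3.77 to 112 CPM). In control the agouti and Ndnf clusters had intervals that do not overlap, while in TP the intervals of all 3 clusters overlapped. Without the Gpc5 cluster the class ratio was 1.97. After thinning, 6.65% of control and 11.2% of TP DPC-like cells had a Cdkn1c UMI, with 15.8% and 32.5% before.

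Dermal sheath cup-like cells, the contractile cells around the base of the follicle, went the other way, with 90.5 CPM in control and 49.6 CPM in TP (ratio 0.548, 0.367 to 0.806, from 87 and 40 UMIs). Dermal fibroblast (DF)-like cells had 68.1 and 53.5 CPM (ratio 0.787, 0.561 to 1.13). Endothelial-like cells had 24.3 and 13.8 CPM from 8 and 10 UMIs. In epidermal and follicular classes the level was 0 to 7.55 CPM, and lymphocyte-like cells had no UMI in either library, which allows up to 5.99 CPM in control and 13.5 CPM in TP. In inner root sheath-like cells 0.362% of control and 0.101% of TP cells had a UMI after thinning, at medians of 1858 and 4091 UMIs before it. The ratio of 2.52 in hair matrix-like cells stands at levels of 3.0 and 7.55 CPM and was 0.922 with finer clusters and 4.04 for the thinned share.

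Cdkn2b, the INK4 gene next to Cdkn2a, was highest in granular-like cells with 49.1 CPM (43.9 to 54.7) in the control library against 70.3 CPM (67.1 to 73.6) under TP and a ratio of 1.43 (1.27 to 1.62). Suprabasal-like cells had 19.4 and 30.2 CPM (ratio 1.55, 1.34 to 1.80), and their cluster led by Krt16 and Krt1 21.7 and 33.6 CPM. Hair cortex-like cells had 43.8 and 56.2 CPM, with intervals that overlap those of granular-like cells in both libraries. Basal-like cells had 6.28 and 4.37 CPM, so the epidermal layers, each pooled over its clusters, kept the order seen for Cdkn1a. DPC-like cells had 10.5 and 6.62 CPM (ratio 0.628, 0.455 to 0.861), and the share of their cells with a UMI after thinning gave a ratio of 0.246. Their clusters differed, with a ratio of 0.632 (0.404 to 0.982) in the agouti cluster and 1.28 (0.756 to 2.10) in the Ndnf cluster. Outer bulge-like cells stood at 11.5 and 6.08 CPM (ratio 0.529, 0.301 to 0.975). Granular-like cells held 16.4% of the Cdkn2b UMIs in control and 52.5% in TP. Of the UMIs of all genes they held 6623743 of 106406464 in control and 26118847 of 133161208 in TP.

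Cdkn2a was detected in few cells of either library. Its 28 control and 38 TP UMIs came to 0.263 and 0.285 CPM (ratio 1.08, 0.648 to 1.83). DPC-like cells held 11 of the control UMIs, each in a different cell, and 3 of those in TP (0.966 and 0.321 CPM, intervals 0.482 to 1.73 and 0.0661 to 0.937). Granular-like cells held 1 and 12, the latter in 7 cells. Dermal sheath cup-like cells had 0 in control and 5 in TP in 4 cells. The p16Ink4a and p19Arf transcripts share their downstream exons, and an assay of transcript ends does not separate them.

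**Figure D3:**
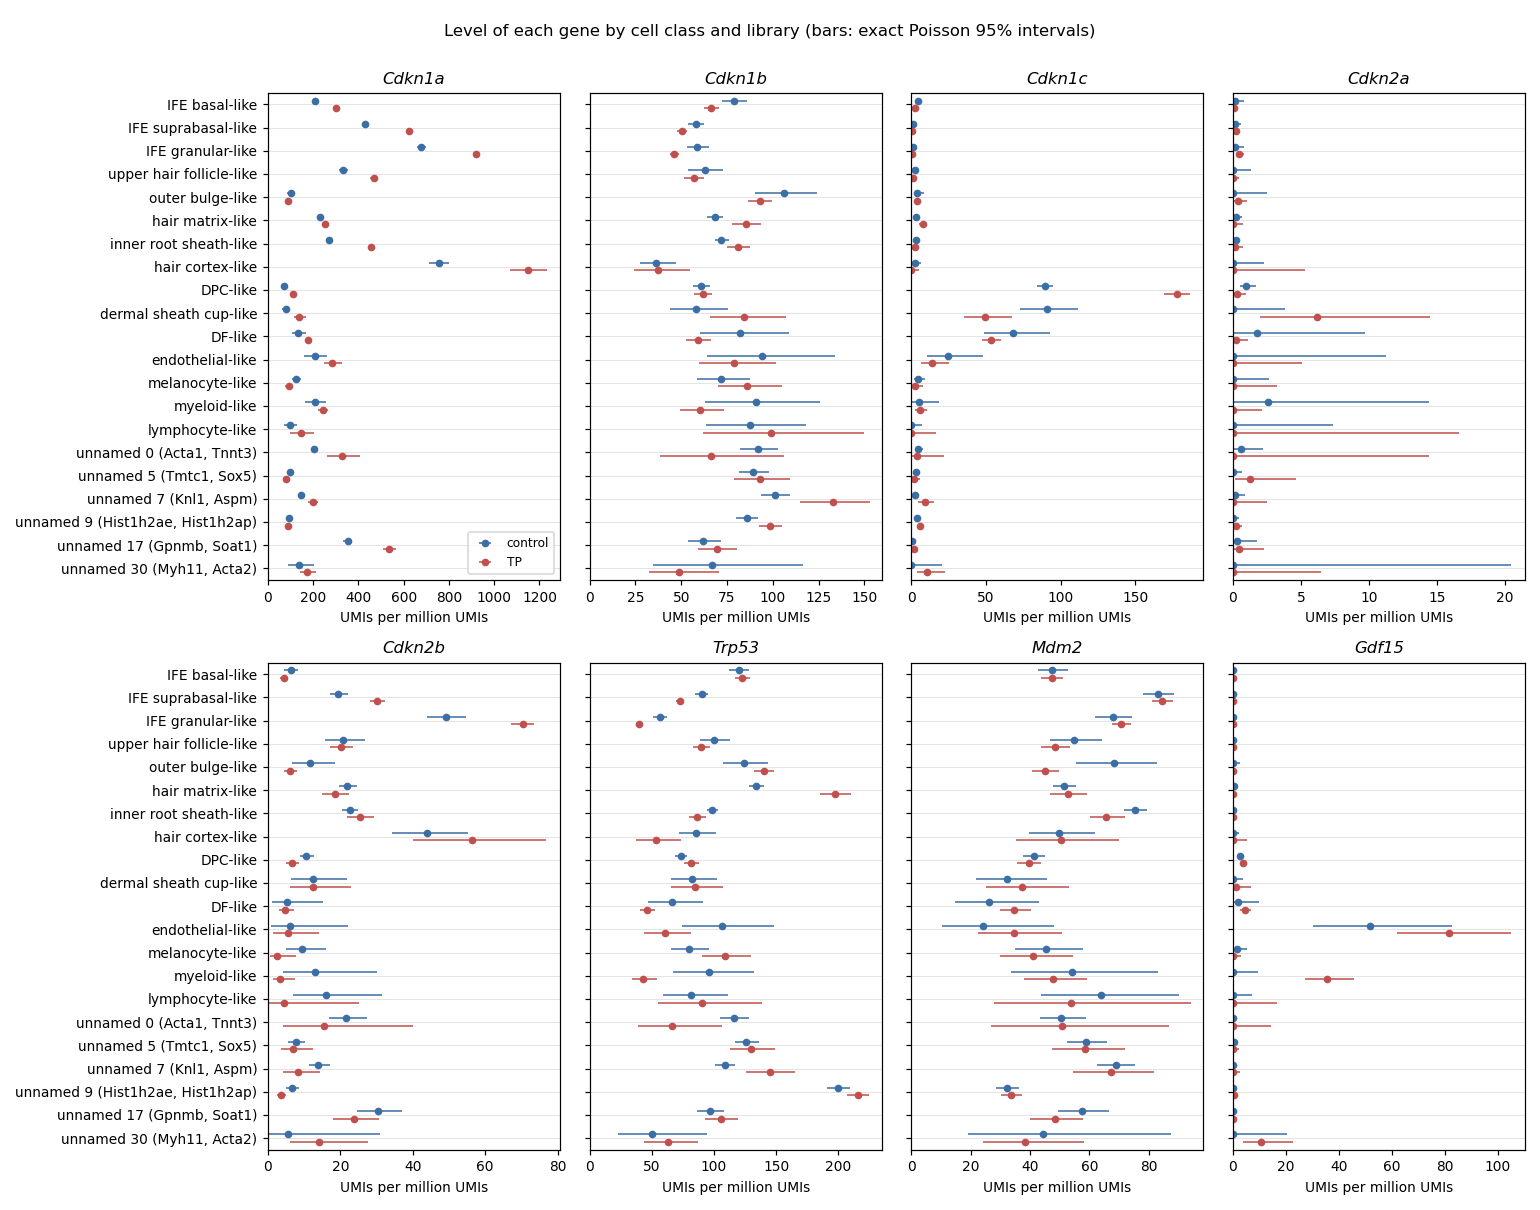
Level of each of the 8 genes in UMIs per 1000000 UMIs by cell class or unnamed cluster, control in blue and TP in red, with exact Poisson 95% intervals. Cdkn1a and Cdkn2b peak in granular-like and hair cortex-like cells, Cdkn1c in DPC-like, DF-like and dermal sheath cup-like cells and Gdf15 in endothelial-like cells, while Cdkn2a stays near 0. Horizontal scales differ between genes.

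Among the 21 classes and unnamed clusters, Trp53 was highest in the unnamed cluster led by the histone genes Hist1h2ae and Hist1h2ap, which cells express during DNA synthesis, with 199.8 CPM (191 to 209) in the control library against 216 CPM (207 to 225) under TP. Hair matrix-like cells followed at 134 and 198 CPM (ratio 1.48, 1.37 to 1.59), and their interval in TP overlaps that of the histone-led cluster. Their Shh cluster, taken alone, had 187 and 265 CPM (ratio 1.42), above the histone-led cluster in TP, and their Selenbp1 cluster 115 and 143 CPM (ratio 1.25), though the class ratio was 0.967 with finer clusters, when the class held other cells. Epidermal levels went down with differentiation, opposite to Cdkn1a: 120.1 and 123 CPM in basal-like, 90.1 and 72.9 CPM in suprabasal-like and 56.3 and 39.5 CPM in granular-like cells. The granular-like ratio was 0.702 (0.623 to 0.792) and the basal-like ratio 1.02 (0.941 to 1.11). Under TMM scaling the granular-like ratio was 0.910, and the suprabasal-like ratio was 0.968, against 0.809 without it. The basal-like ratio rises too, since TMM scaling divides it by 0.869. Basal-like clusters differed, with 109.6 and 84.4 CPM in the Cdh13 cluster (ratio 0.770, 0.661 to 0.898), 139 CPM in both libraries in the Krt14 cluster (ratio 1.00) and 108 and 140 CPM in the Anln cluster (ratio 1.30, 1.09 to 1.56). In TP the interval of the Cdh13 cluster overlaps that of the suprabasal-like Krt16 cluster (78.9 CPM), so the decline with differentiation does not hold for each cluster. Myeloid-like cells had 95.7 and 43.1 CPM (ratio 0.451, 0.300 to 0.687, from 37 and 75 UMIs), with a ratio of 0.728 for the thinned share of cells, and endothelial-like cells 106 and 60.7 CPM (ratio 0.570). The hair cortex-like ratio of 0.622 turned above 1 with coarser and with finer clusters, to 1.05 and 1.12, and was 0.370 for the thinned share.

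Mdm2, a p53 target and the ligase that removes p53, had the fewest unscaled ratios off 1 among the genes with more than 1000 UMIs. Without TMM scaling, its interval held 1 in 19 of the 21 classes and unnamed clusters. Suprabasal-like cells were highest at 83.3 and 84.6 CPM (ratio 1.02, 0.943 to 1.10), but their clusters differed. The Krt16 cluster had 70.1 and 71.5 CPM, the Ghr cluster 114 and 141 CPM (ratio 1.23, 1.05 to 1.44) and the Skint5 cluster 125 and 128 CPM. The nuclear transcript Malat1 stood at 35537 and 39475 CPM in the Ghr cluster and 32273 and 29806 CPM in the Skint5 cluster, against 21139 and 17745 CPM in the Krt16 cluster. Whether intronic reads were counted is not given in the sources used here, and the part of nuclear RNA in these Mdm2 levels was not tested. Granular-like cells had 67.9 and 70.8 CPM (ratio 1.04, 0.940 to 1.16), where Cdkn1a had its ratio of 1.35. TMM scaling divides each ratio of this class by 0.771, which raises that of Mdm2 as well and gives 1.75 for Cdkn1a. In suprabasal-like cells the divisor is 0.836. Whether the Mdm2 intervals within classes hold 1 under TMM scaling was not computed. The classes whose unscaled interval did not hold 1 were inner root sheath-like cells at 75.5 and 65.8 CPM (ratio 0.872) and outer bulge-like cells at 68.3 and 45.1 CPM (ratio 0.661, 0.529 to 0.831). Inner root sheath-like clusters differed, with a ratio of 0.996 (0.844 to 1.17) in the Krt71 cluster and 0.846 (0.714 to 0.999) in the Krt73 cluster. Of cells thinned to 1000 UMIs, 6.35% (5.75 to 6.99) of control cells with a Cdkn1a UMI also had Mdm2, against 5.94% of those without. In TP the shares were 6.37% (5.66 to 7.13) and 5.52% (5.14 to 5.93), with intervals that overlap. These shares pool all classes, and single classes of TP went both ways. Granular-like cells had 6.62% with and 7.75% without Cdkn1a, suprabasal-like cells 7.47% and 7.51%, and inner root sheath-like cells 7.61% and 6.94%. Gdf15 was seen in 5 of 6077 control cells with Cdkn1a and 9 of 27637 without, and in 6 of 4366 and 15 of 13304 TP cells, too few to compare.

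Gdf15, a secreted member of the transforming growth factor beta superfamily that stressed cells release, was concentrated in few cells. Endothelial-like cells had 51.7 CPM (30.1 to 82.8) in the control library against 81.4 CPM (62.0 to 105) under TP, from 17 UMIs in 8 cells and 59 UMIs in 19 cells (ratio 1.57, 0.905 to 2.88). Myeloid-like cells had no UMI among 171 control cells and 62 UMIs among 416 TP cells, in 19 cells of which 1 held 16 UMIs. Against a limit of 3 counts in control (7.76 CPM), the TP level of 35.7 CPM is 4.59-fold higher. The exact interval of that ratio, which also covers the counting error of the 62 UMIs, starts at 3.63. Among the 6403 genes compared in that class, 5.33% were 2-fold higher in TP, and Gdf15 entered that comparison through its TP UMIs alone. DPC-like cells had 31 and 36 UMIs (2.72 and 3.85 CPM, ratio 1.41, 0.849 to 2.36), of which the Ndnf cluster had 21 and 18 (3.97 and 13.7 CPM, ratio 3.45, 1.73 to 6.80). DF-like cells had 1 and 22 UMIs. Suprabasal-like cells had 1 UMI and none. DPC-like cells held 31 of the 62 Gdf15 UMIs in control and 18.2% of those in TP, endothelial-like cells 27.4% and 29.8%, and myeloid-like cells none and 31.3%.

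Cycling cells were compared through clusters, because at least 1 UMI of Mki67, Top2a, Cenpf or Ube2c was found in 25276 control cells of at least 1000 UMIs and missing in 8438, and found in 446 of the 614 control granular-like cells, which do not divide. By that split Cdkn1a stood at 241 CPM in control cells with such a UMI and 301 CPM in those without, and at 439.8 and 484 CPM in TP. Hair matrix-like cells differed most, at 211 and 306 CPM in control and 176 and 505 CPM in TP. Their clusters differ in Cdkn1a as well, with 91.9 and 57.1 CPM in the Shh cluster and 395 and 577 CPM in the Slc27a6 cluster. Those with such a UMI were also deeper, at medians of 2376 and 2143 UMIs in control and 5610 and 3639.5 in TP. The part of clusters and depth in this split was not tested. The cycling basal-like cluster, led by Anln and Diaph3, had Cdkn1b at 117 and 100.2 CPM, against 74.1 and 65.5 CPM in the Cdh13 cluster and 61.7 and 47.9 CPM in the Krt14 cluster. Its Cdkn1a level of 195 and 271 CPM lay between theirs in TP. The histone-led cluster had little Cdkn1a (93.1 and 87.5 CPM, ratio 0.940, 0.854 to 1.04) beside the highest Trp53 level of the 21. Clusters were built without the 8 genes, but with cell cycle genes.

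Genes around this pathway were counted from fixed lists by the same 2-fold rule over all kept cells. Of 32 other p53 targets, 1 was 2-fold higher in TP, the antiproliferative gene Btg2 (96.3 and 431 CPM), and none lower. The median log2 ratio was -0.03 beside -0.06 over all genes, and 13 of the 32 lay above 0. Perp, named after its values had been seen, lay just under the limit at 1131 and 2238 CPM (log2 ratio 0.978). The summed level of the list, which includes both, was 2300 and 3715 CPM. Btg2 is also an immediate-early gene. Among 9 regulators of p53 none was 2-fold apart, and on that scale the checkpoint kinase gene Atr (58.9 and 34.5 CPM) differed most. By the ratio of CPM alone it was Chek2, another checkpoint kinase gene (20.1 and 10.6 CPM). The 3 relatives Cdkn2c, Cdkn2d and Cdkn3 had no gene 2-fold apart, and Cdkn3 differed most (11.2 and 7.31 CPM). Of 22 genes from CDK4/6 to E2F, E2f3 was 2-fold lower (159 and 63.0 CPM) and none higher (median -0.47), and 6 were 2-fold lower by the ratio of CPM alone. Of 27 S and G2/M phase genes, Mki67 was 2-fold lower (509 and 232 CPM), none was higher and 1 lay above 0 (median -0.43). The median of the same list was below 0 in 16 of the 21 classes and unnamed clusters, as in DF-like (-1.10), suprabasal-like (-0.68) and DPC-like cells (-0.65), and near 0 in basal-like cells (-0.01). It was above 0 in 5, among them melanocyte-like (0.60), outer bulge-like (0.54) and hair matrix-like cells (0.30). The median over all genes was also below 0 in each class named here, so a value below 0 is not particular to this list. In the order named, it was -0.19, -0.11, -0.06, -0.10, -0.13, -0.06 and -0.07.

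Lists of stress and secretion were counted in the same way. Of 19 immediate-early genes, 14 were 2-fold higher and none lower (median 1.46), among them Fos (659.6 and 2023 CPM), Egr1 (299 and 889 CPM), Klf2 (5.44 and 28.9 CPM) and Atf3 (200.4 and 821 CPM). The others were Btg2, Dusp1, Fosb, Ier2, Junb, Jund, Klf4, Klf6, Nr4a1 and Zfp36. Of 18 genes of the integrated stress response, Atf3, Nupr1 (51.3 and 142 CPM) and Herpud1 (23.7 and 61.8 CPM) were 2-fold higher and none lower (median 0.37). Of 27 compared genes linked to the senescent secretome and nucleus (median 0.16), 4 were 2-fold higher: the chemokine genes Ccl8 (13.5 and 169.9 CPM) and Cxcl2 (3.69 and 35.0 CPM), the matrix protease gene Mmp3 (3.56 and 27.4 CPM) and the growth factor gene Areg (10.9 and 36.7 CPM). By the ratio of CPM alone 16 of the 27 were at least 2-fold higher and 1 lower, most of them genes of low level such as Ccl7 (0.554 and 7.35 CPM), Timp1 (0.583 and 4.63 CPM), Ccl2 (0.517 and 4.06 CPM) and Il6 (0.141 and 0.886 CPM), which were chosen after their values had been seen. Myeloid-like cells, whose leading genes include Ccl8 and Cxcl2, made up 0.438% of control and 2.24% of TP cells. In DPC-like cells, 16 of 19 immediate-early genes were 2-fold higher and none of the 7 genes of the set compared there, where 1.63% of 12866 genes were higher and 1.76% lower.

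**Figure D4:**
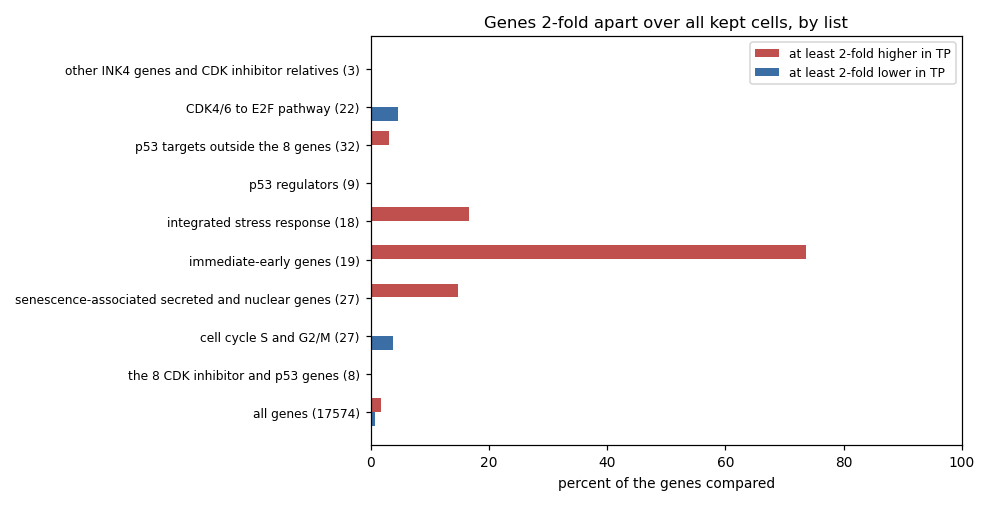
Percent of the genes compared in each list that were at least 2-fold higher (red) or lower (blue) in TP over all kept cells, with the number compared in parentheses. Immediate-early genes stand out with 14 of 19 higher, and the 8 CDK inhibitor and p53 genes have none in either direction.

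The pattern of each gene over the 31 clusters was compared with 12055 genes by the lower of its 2 Pearson correlations, 1 per library, on log2(CPM + 1). Closest to Cdkn1a were Dapl1 (0.82 in control and 0.82 in TP), Zbtb7a and Smagp, and to Cdkn2b were Bicdl2 (0.82 and 0.80) and Ppfia3. Cdkn1c was most like Lepr (0.91 and 0.89), Cdh11 and Prrx2, and Cdkn1b most like Stag1 (0.82 and 0.75), Nusap1 and Cep128. Trp53 was most like the splicing and RNA-processing genes Srsf7 (0.85 and 0.92), Prmt1 and Snrpd1, and Mdm2 most like Atp11b (0.85 and 0.84), Relch and Uty. Within the set, Cdkn1a and Mdm2 had correlations of 0.44 and 0.39, and Cdkn1a and Trp53 -0.19 and -0.46. These are descriptions over clusters that share a library and differ in depth.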

How the data were processed

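Dorsal skin of 15 mice per group was pooled, digested with collagenase D and made into 1 droplet library per group. Per the labels, the authors used Cell Ranger 8.0.1 on mm10. The deposited values are UMI counts per gene and barcode, without normalization. Whether intronic reads were counted is not given in the sources used here. The antibody-treated TP mice are not analysed here.

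The study's limits were applied (200 to 8000 genes, mitochondrial share up to 10%). A rewritten DoubletFinder procedure then took out the 7.5% most doublet-like barcodes, 3168 of control and 1503 of TP. Seurat 5.3.0 in R 4.3.3 integrated both libraries by reciprocal PCA, in place of the default anchors, with 30 components and Louvain resolution 1. The 8 genes and the gene lists, except the cell cycle list, were kept out of the clustering features. Clusters were named from fixed markers where the score reached 1.25, at least 3 markers were detected and the leading 10 genes held no larger number of another class's markers. A cluster stayed unnamed where another class had more than 1 marker among the leading 10 genes and a score of at least 3. These thresholds were chosen with the clusters in view. Python 3.11.15 with scipy 1.17.1 gave intervals, and edgeR 4.0.16 TMM factors only.

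The genes, lists and comparisons were chosen with earlier results of these data known. From other lists, genes 2-fold apart were named, or the one with the largest difference where none was. For likeness, the 3 closest genes were named for each of the 8 with at least 200 UMIs in each library, and 1 of these is not reported here. The fold calls and intervals were run on simulated counts with Poisson error only, and the naming on simulated clusters made from its own markers. These runs check the code and cannot show how well the rules do on real cells. With 1 library per group no p-value was computed. Alternatives were other scaling, filters, cluster shares, resolutions and thinning.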

Additional observations from a re-analysis of the deposited data

Results flagged for a closer look

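For 5 of the genes the ratio of TP to control lay above 1 beyond counting error in some classes and below 1 in others, among classes with at least 20 UMIs in each library. With 1 library per group, none of these differences between classes was tested. How many of all genes lie on both sides of 1 in this way was not counted. Over all genes, 14.6% of combinations of a gene and a class or unnamed cluster had an interval above 1, and 27.7% below 1. Cdkn1a ranged from 1.78 in dermal sheath cup-like (1.47 for the thinned share of cells) to 0.734 in melanocyte-like cells. Cdkn1b ranged from 1.45 in dermal sheath cup-like (2.25 for the thinned share) to 0.719 in DF-like cells. Cdkn1c ranged from 2.52 in hair matrix-like cells, at levels of 3.0 and 7.55 CPM, to 0.548 in dermal sheath cup-like cells, Cdkn2b from 1.55 in suprabasal-like IFE cells to 0.628 in DPC-like cells, and Trp53 from 1.48 in hair matrix-like to 0.451 in myeloid-like cells, where the thinned share of cells gave 0.728. The hair matrix-like ratios of Cdkn1c and Trp53 were 0.922 and 0.967 with finer clusters, so their direction depends on how that class is drawn.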

How the results depend on the processing

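No paired analysis was possible because each group is 1 library. Counting intervals do not cover the spread between animals, digestions or libraries, and Cdkn2a and Gdf15 had too few UMIs to be compared within most classes. Over all kept cells, TMM scaling gave ratios of 2.15 for Cdkn1a, 1.51 for Cdkn1c, 1.67 for Cdkn2b and 1.19 for Mdm2, and reversed Cdkn1b (1.07) and Trp53 (1.04). Control cluster shares gave 1.38 for Cdkn1a, 1.70 for Cdkn1c and 1.07 for Cdkn2b, and reversed Cdkn1b (1.06) and Trp53 (1.03). The shares of TP gave 1.37, 1.37 and 1.23 for the first 3, 0.932 for Cdkn1b and 0.956 for Trp53. Means of ln(counts per 10000 + 1) gave 1.59 for Cdkn1a, 1.63 for Cdkn1c, 1.30 for Mdm2 and 3.59 for Gdf15, and reversed Cdkn1b (1.23) and Trp53 (1.15). Without doublet removal Cdkn1a stood at 1.87 and Cdkn2b at 1.49, and with a mitochondrial limit of 5% at 1.87 and 1.51, with Cdkn1c at 1.13. Ratios from every barcode or from cells with at least 1000 UMIs stayed within the intervals given. Genes 2-fold higher and lower numbered 300 and 142, 469 and 72 under TMM scaling, 786 and 618 with a pseudocount of 0.01, 56 and 8 with control cluster shares, and 1461 and 1855 without a pseudocount, a setting chosen after seeing the data. The share of higher among them was 67.9%, 86.7%, 56.0%, 87.5% and 44.1% in that order. Of the 8 genes, Cdkn1a was among them under TMM scaling and Gdf15 without a pseudocount. Ratios within named classes were recomputed where the interval lay off 1 with at least 20 UMIs in each library. Without reversing, 12 left their interval under TMM scaling, 20 as the thinned share, 6 at resolution 2 and 1 at resolution 0.5. Those that stayed within it numbered 22, 15, 27 and 29 in the same order. Within classes, reversals were Trp53 in DPC-like cells as the thinned share (0.954) and in hair cortex-like cells at resolutions 0.5 (1.05) and 2 (1.12), Cdkn1b under TMM scaling in granular-like (1.02) and suprabasal-like cells (1.04), and, in hair matrix-like cells, Cdkn1a at resolution 0.5 (0.948) and Cdkn1c (0.922) and Trp53 (0.967) at resolution 2. Leaving out the Gpc5 cluster, also chosen after seeing the data, reversed Cdkn1a in DPC-like cells (0.951). Apart from that last reversal, whose cause is the cluster left out, the cause was not tested.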
